A study of Arabidopsis thaliana with 12 samples.

Results

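In wild-type Arabidopsis leaves that had floated on salt, most listed genes for protein folding in the endoplasmic reticulum (ER) and for DNA replication were called higher than in mock leaves. Most listed genes for plastid gene expression, photorespiration, breakdown of amino acids, branched-chain ones among them, and mitosis were called lower. The photorespiration list and the split of cell cycle genes into roles were made after values had been seen. Fewer mitosis genes were called in some fits that left out 1 library. This account describes the response of wild-type leaves across all 33597 named genes of the deposited count table, in the 6 wild-type libraries of a series of 12. It covers 3 libraries of salt-treated leaves and 3 of mock leaves, selected by their labels and not by any measured value. At least 1 count in these 6 libraries was found for 24132 of the genes.

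The leaves were rosette leaves 3 and 4 of Arabidopsis thaliana plants of the Col ecotype, labelled wild type. For the salt treatment, leaves cut off at 16 DAE (an age unit the labels do not spell out) lay for 1 day on 3 mM MES buffer of pH 5.8 with 100 mM NaCl. They were kept at 22 °C, and each day had 16 h light and 8 h dark. The comparison leaves are labelled mock, with no NaCl and no day named. Leaf age, buffer, pH, temperature and light cycle are recorded for them as for the salt-treated leaves. The other 6 libraries of the series came from the same treatments of leaves that overexpress ERF34 as a GFP fusion from the CsVMV promoter, in 1 line. The labels do not state whether mock leaves were also detached and floated for 1 day, so an effect of NaCl and an effect of detaching and floating a leaf cannot be told apart. The labels call the replicates biological and independent, and the total RNA behind them came from whole leaves.

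NaCl lowers the water potential around a cell, and sodium and chloride that enter the leaf disturb its ion balance. A leaf can answer by closing stomata, slowing photosynthesis and growth, folding and secreting more proteins, changing its cell walls, and in the end by dismantling its chloroplasts in senescence. Each of these involves genes in the nucleus whose messenger RNA was counted here. Levels are given as CPM (counts scaled to the same library size), listed in the order of replicates 1, 2 and 3 in each group. Differences are log2 fold changes of salt over mock with their standard error (SE), from edgeR's quasi-likelihood test with p-values adjusted over all genes tested by the Benjamini-Hochberg method.

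Of 18886 genes with enough counts to be tested, 7814 (41.4%) were called at an adjusted p under 0.05. With salt 3833 genes (20.3%) were higher and 3981 (21.1%) were lower, and the median log2 fold change of all genes tested was -0.01. The larger changes were mostly rises. Among called genes, 936 were at least 4-fold higher and 310 at least 4-fold lower, and at a log2 fold change of 5 or beyond there were 158 rises and 7 falls. In 1635 called genes the change was under 1.5-fold. The genes called higher held a summed mean of 276486 CPM in salt-treated leaves and 123217 CPM in mock leaves, and the genes called lower held 226322 CPM in salt-treated leaves and 418728 CPM in mock leaves. Only 269 genes made up 50% of the gain and 158 genes made up 50% of the loss. Libraries of the groups did not overlap in 7611 of the called genes and in 9886 of all 18886 tested.

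**Figure D1:**
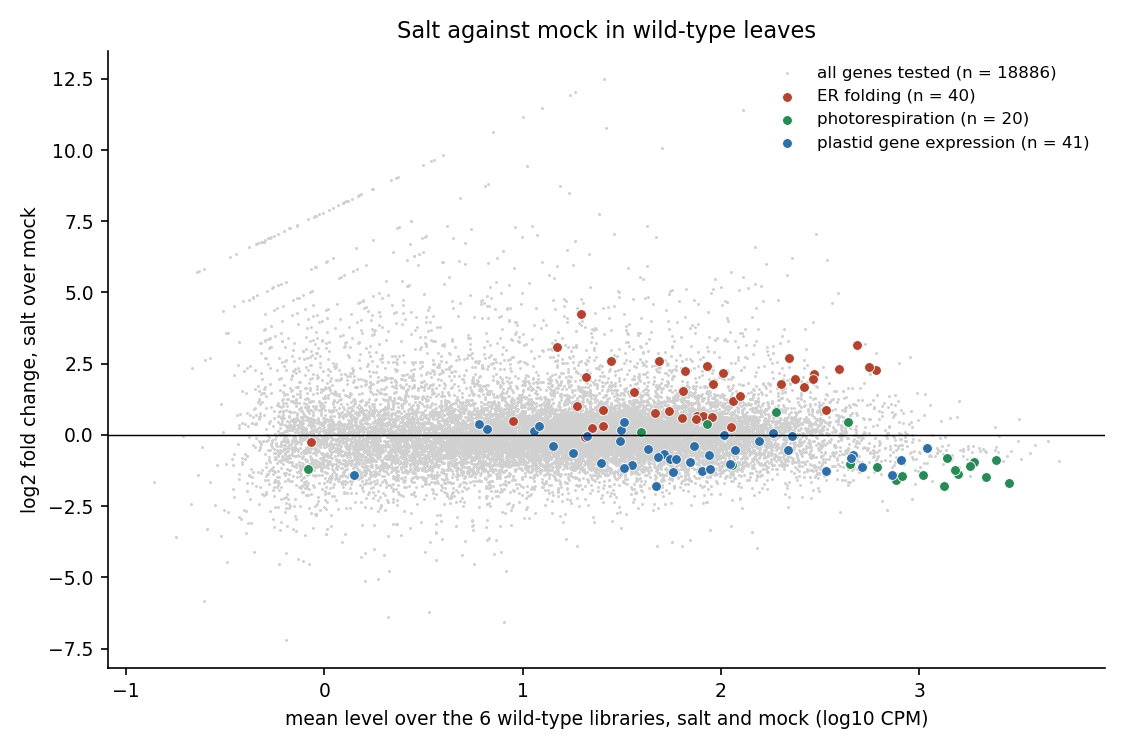
Each point is 1 of the 18886 genes tested, with its mean level over the 6 wild-type libraries on a log10 axis and its log2 fold change of salt over mock. Of the coloured groups, 32 of 40 ER folding genes were called higher, while 15 of 20 photorespiration genes and 25 of 41 plastid gene expression genes were called lower. The photorespiration list was put together after losses among its genes had been seen. The slanted lines of points at the upper left are genes with 0 counts in every mock library or with very few.

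Some reads cannot be assigned to 1 gene with certainty. The library kit marks strand, but the strand setting of the counting is not given in the sources used here. A gene and its partner on the opposite strand may therefore share reads, and among the genes with values below this holds for AHP4, BAM6, CDKB2;1, CPK4, CRB, ERDJ3A, ETFQO, EXO70H2, GLDP1, HVA22J, IDH2, KN, MCCA, MCM7, MES18, NRT1.8, P58IPK, PEX14, PIF7, PP2-A13, PPCK1, RABA4B, RCA, RLP23, SCO1, SIG4, SMR5 and TUA2. Among the genes named, AT5G43910, CA1 and MCM7 overlap a gene on their own strand.

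Wild-type library totals were 14301312 to 18398594 counts. The first principal component of the 6 libraries held 72.0% of the variance and parted salt-treated leaves, at 51.7 to 68.2, from mock leaves, at -77.8 to -42.6. The second held 12.8%, and replicate 2 was the lowest in both groups. In at least 1 of the 6 fits that left out a wild-type library, 2624 of the called genes lost their call or changed direction, 507 moved by over 1.5 times in fold, and 4799 did neither. Counts of few calls were the least stable: of 23 counts of 1 or 2 calls in 1 direction, over the lists, roles and families apart from cell type markers, 14 were smaller in at least 1 of these fits. No gene was called for a difference between the salt responses of wild type and overexpressor (0%), although 2580 had an unadjusted p under 0.05, DESeq2 called 658, and a model with the replicate number as a block called 379.

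The 10 genes with the largest rises included several members of metabolic or transport families. AOX1B, an alternative oxidase of the mitochondrial inner membrane, stood at 41.4, 36.2 and 76.1 CPM in salt-treated leaves and had no count in mock leaves. Against the 0.0641 CPM that 3 counts over the mock group would give, this was at least 799.8-fold higher. HVA22J had 14.5, 21.0 and 24.6 CPM in salt-treated leaves and none in mock leaves, at least 313-fold higher. Both had counts in every salt library and in no mock library.

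NRT2.6, a high-affinity nitrate transporter, had 126, 18.4 and 159 CPM in salt-treated leaves, against 0.132, 0.0644 and 0.0620 CPM in mock leaves (log2 10.07, SE 0.97, adjusted p = 6.60e-05). Its lowest salt library was far above its highest mock library, but the salt libraries themselves differed widely. SUC7, a member of the sucrose-proton symporter family, had 12.6, 22.7 and 27.6 CPM in salt-treated leaves, against 0, 0 and 0.0620 CPM in mock leaves (log2 9.44, or 11.19 without mock replicate 3). The carbonic anhydrase gene AT2G28210 had 15, 47.7 and 30.2 CPM in salt-treated leaves, against 0, 0.129 and 0.0620 CPM in mock leaves (log2 8.73, or 9.57 without mock replicate 2). All 3 were close to silent in mock leaves. Genes in this and the next paragraph were taken by the size of their fold change among genes whose groups do not overlap, so their separation follows from that choice.

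Among the 10 largest falls, PP2-A13, a lectin-type phloem protein, had 11.6, 25.6 and 17.3 CPM in salt-treated leaves, against 305, 377 and 172 CPM in mock leaves (log2 -3.97, SE 0.45, adjusted p = 0.000124). The highest salt library was several-fold under the lowest mock library. AT5G62360, annotated as an invertase or pectin methylesterase inhibitor, had 10.0, 3.83 and 4.26 CPM in salt-treated leaves, against 84.4, 92.4 and 91.2 CPM in mock leaves (log2 -3.89, SE 0.48). GDPD2, a phosphodiesterase of lipid turnover, had 3.89, 12.4 and 14.0 CPM in salt-treated leaves, against 108, 178 and 103 CPM in mock leaves (log2 -3.68, SE 0.60). In both genes every salt library was far under every mock library. MYB90, a transcription factor that switches on anthocyanin synthesis, had 11.7, 2.71 and 3.53 CPM in salt-treated leaves, against 86.4, 18.6 and 64.6 CPM in mock leaves. Its log2 fold change was -3.25, or -4.17 without salt replicate 1, the highest of the salt libraries.

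Counted by the amount of mRNA instead of the fold, the largest gains were in LOX2, HSC70-1, WAK1, GSTF2, MRP3, OM66, CYP81D8, SHD, NIT1 and BIP2. LOX2, the chloroplast lipoxygenase that starts jasmonate synthesis, had 1069.8, 2167 and 1446 CPM in salt-treated leaves, against 148, 352 and 195 CPM in mock leaves (log2 2.75, SE 0.58, adjusted p = 0.00367). HSC70-1, a cytosolic chaperone, had 2358, 2180.2 and 2116 CPM in salt-treated leaves, against 986, 1196 and 737 CPM in mock leaves (log2 1.19, SE 0.20). Salt libraries were higher throughout for both. NIT1, a nitrilase, had 1662, 1518 and 1431 CPM in salt-treated leaves, against 816, 666 and 755 CPM in mock leaves (log2 1.04, SE 0.14). MRP3, a vacuolar ABC transporter, had 1439, 1069 and 1818 CPM in salt-treated leaves, against 455, 527 and 569 CPM in mock leaves (log2 1.48, SE 0.35). In each of these genes the lowest salt library lay above the highest mock library.

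The largest losses of mRNA were in RCA, GLDP1, AGT, THI1, CA1, LHCA1, PSBO1, GLDP2, SHM1 and LHCA3, all of which serve the chloroplast or photorespiration. RCA, rubisco activase, had 3894, 3037 and 3697 CPM in salt-treated leaves, against 7322, 5801 and 6889 CPM in mock leaves (log2 -0.91, SE 0.16, adjusted p = 0.00118). THI1, which makes the thiazole part of vitamin B1, had 2708, 2406 and 1936 CPM in salt-treated leaves, against 4445, 4309 and 3772 CPM in mock leaves (log2 -0.83, SE 0.15). PSBO1, a subunit of the oxygen-evolving complex of photosystem II, had 2881, 2992 and 2554 CPM in salt-treated leaves, against 4401, 4418 and 4407 CPM in mock leaves (log2 -0.65, SE 0.12). Each of these genes fell by less than 4-fold without overlap between groups.

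The smallest adjusted p-values among rises belonged to AT5G43910, AT1G35710, RLP23, AT2G16660 and WAK1. AT5G43910, annotated as a carbohydrate kinase of the pfkB type, had 29.5, 26.9 and 28.5 CPM in salt-treated leaves, against 5.81, 5.41 and 5.82 CPM in mock leaves (log2 2.31, SE 0.11, adjusted p = 5.53e-06). AT1G35710, a receptor-like kinase with leucine-rich repeats, had 337, 389 and 349 CPM in salt-treated leaves, against 31.6, 44.5 and 40.1 CPM in mock leaves (log2 3.21, SE 0.16). AT2G16660, a transporter of the major facilitator superfamily, had 461, 290.3 and 375 CPM in salt-treated leaves, against 14.3, 12.8 and 15.5 CPM in mock leaves (log2 4.72, SE 0.26). The replicates of these genes lay close together. The receptor-like kinase WAK1, which binds pectin in the cell wall, had 1427, 1304 and 1326 CPM in salt-treated leaves, against 239, 213 and 248 CPM in mock leaves (log2 2.54, SE 0.14, adjusted p = 7.48e-06).

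The smallest adjusted p-values among falls belonged to MES18, NDH-O, AT1G07440, AT3G43540 and CRR3. MES18, annotated as a methyl esterase, had 3.21, 4.65 and 3.42 CPM in salt-treated leaves, against 27.5, 27.5 and 26.1 CPM in mock leaves (log2 -2.84, SE 0.15, adjusted p = 6.91e-06). NDH-O and CRR3 are both needed for the chloroplast NDH complex, which passes electrons around photosystem I. NDH-O had 50.5, 40.1 and 38.6 CPM in salt-treated leaves, against 223, 187 and 210.4 CPM in mock leaves (log2 -2.27, SE 0.15). CRR3 had 21.8, 22.2 and 20.3 CPM in salt-treated leaves, against 55.7, 54.7 and 56.1 CPM in mock leaves (log2 -1.37, SE 0.10). Both NDH genes were lower in each salt library than in any mock library.

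**Figure D2:**
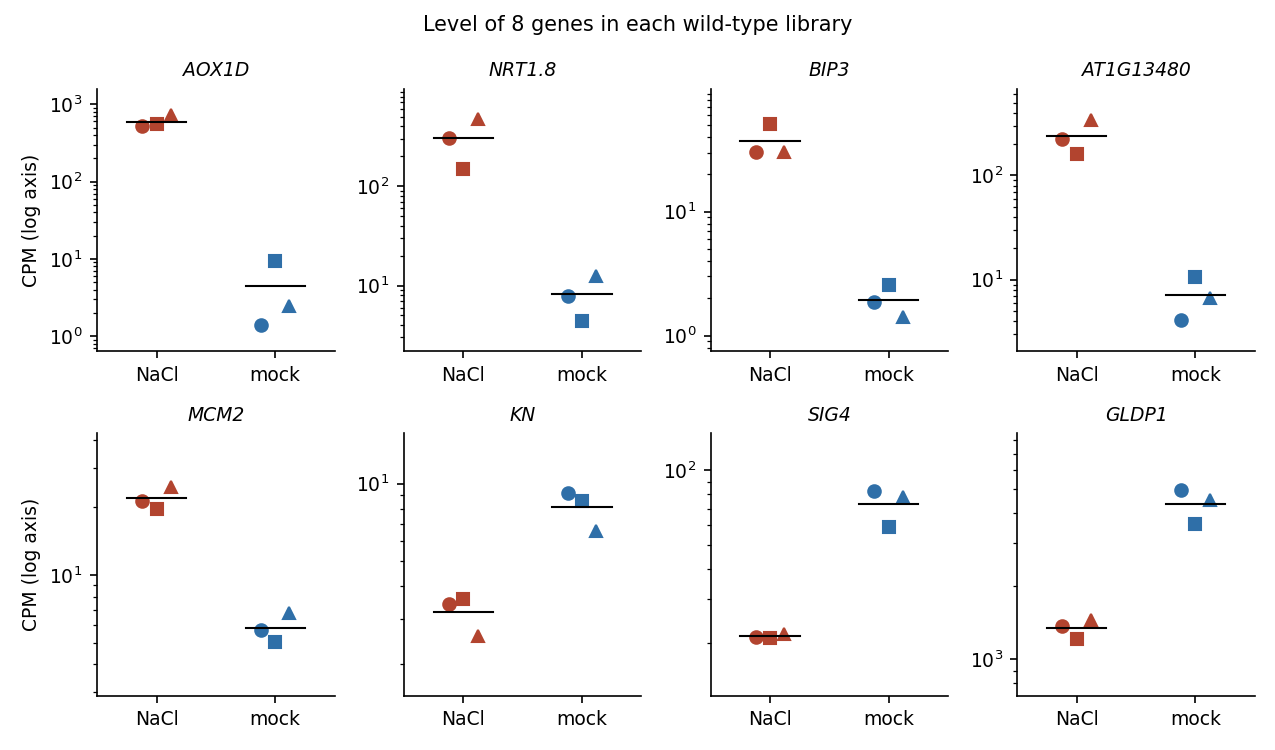
Levels of 8 genes in CPM on log axes, in salt-treated leaves (NaCl, left) and mock leaves (right). Circles, squares and triangles are replicates 1, 2 and 3, and bars are group means. AOX1D, NRT1.8, BIP3, AT1G13480 and MCM2 were higher with salt in every library, and KN, SIG4 and GLDP1 lower.

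Genes of protein folding in the ER were called higher in 32 of 40 cases and lower in none, with a median log2 fold change of 1.53. Their summed level was 7445 to 9479 CPM in salt-treated leaves and 2318 to 2667 CPM in mock leaves. The ER folds proteins for the cell wall, the vacuole and the cell surface. When unfolded chains build up there, the transcription factors bZIP28 and bZIP60 switch on chaperones in what is called the unfolded protein response. The chaperone BIP binds unfolded chains, J-proteins steer it, disulfide isomerases (PDIL) form disulfide bonds, and calnexins and calreticulins hold sugar-bearing chains.

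BIP3, the form of BIP that is low in unstressed leaves, had 30.6, 51.1 and 30.2 CPM in salt-treated leaves, against 1.85, 2.58 and 1.42 CPM in mock leaves (log2 4.25, SE 0.53, adjusted p = 0.000207). BIP2 had 961, 1008 and 645 CPM in salt-treated leaves, against 107, 114 and 72.5 CPM in mock leaves (log2 3.16, SE 0.28). In BIP2, 24.1% of the 50-base stretches of its exons also occur elsewhere in the genome, so its reads may have been shared with a near-identical copy. SHD, the HSP90 of the ER, had 1004, 1193 and 823 CPM in salt-treated leaves, against 228, 218 and 169 CPM in mock leaves (log2 2.29, SE 0.21). All 3 chaperones were several-fold higher in each salt library than in any mock library.

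Of the partners of BIP, ERDJ3A had 25.3, 31.7 and 24 CPM in salt-treated leaves, against 3.04, 3.48 and 2.91 CPM in mock leaves (log2 3.09, SE 0.26), and P58IPK had 122, 102 and 102 CPM in salt-treated leaves, against 25.2, 20.5 and 23.4 CPM in mock leaves (log2 2.24, SE 0.17). The disulfide isomerase PDIL1-2 had 403, 447 and 303 CPM in salt-treated leaves, against 60.9, 67.3 and 50.5 CPM in mock leaves (log2 2.69, SE 0.24), and CNX1, a calnexin, had 756, 743 and 468 CPM in salt-treated leaves, against 149.8, 143 and 99.6 CPM in mock leaves (log2 2.32, SE 0.30). P58IPK, CNX1 and PDIL1-1 were chosen for naming after their values were seen. The groups did not overlap in any of these genes. The gene of the regulator bZIP60 itself had 385, 338 and 589 CPM in salt-treated leaves, against 121, 259 and 337 CPM in mock leaves, and was not called (log2 0.87, adjusted p = 0.098), although it was with the replicate number as a block (adjusted p = 0.0479). Its activity is known to be set by splicing of its mRNA, which a count per gene does not show.

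The ER stress response element is a pair of short boxes, CCAAT and CACG, kept 10 bases apart. It was found, on either strand, in the 250 bases before the gene start of 9 of the 40 ER folding genes (22.5%) and of 0.901% of all 18758 promoters searched. All 9 of these genes were called higher, in a list where 32 of 40 were. Of all 169 promoters with the element, 48 were of genes called higher and 33 of genes called lower, beside 20.3% and 21.1% of all genes tested. The search for this element was added after the rise of the list had been seen. A match describes letters in this window and is not a measured binding site. Promoters of 4 such genes are shown because their genes rose together, with the boxes in capitals, from RefSeq's TAIR10.1 assembly, written 5′ to 3′ on the strand of the gene.
BIP3, chr1:2931851-2932100, minus strand: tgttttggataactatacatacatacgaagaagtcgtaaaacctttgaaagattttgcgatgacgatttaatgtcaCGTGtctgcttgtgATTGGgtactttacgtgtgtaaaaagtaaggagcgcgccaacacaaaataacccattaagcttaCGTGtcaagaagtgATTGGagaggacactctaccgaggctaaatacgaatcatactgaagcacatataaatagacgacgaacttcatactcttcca
PDIL1-2, chr1:29126398-29126647, plus strand: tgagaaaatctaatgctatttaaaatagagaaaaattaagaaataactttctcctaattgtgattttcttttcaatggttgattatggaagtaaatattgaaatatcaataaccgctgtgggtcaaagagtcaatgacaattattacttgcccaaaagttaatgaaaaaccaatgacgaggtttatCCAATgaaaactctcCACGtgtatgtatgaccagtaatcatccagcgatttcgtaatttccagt
SHD, chr4:12556059-12556308, minus strand: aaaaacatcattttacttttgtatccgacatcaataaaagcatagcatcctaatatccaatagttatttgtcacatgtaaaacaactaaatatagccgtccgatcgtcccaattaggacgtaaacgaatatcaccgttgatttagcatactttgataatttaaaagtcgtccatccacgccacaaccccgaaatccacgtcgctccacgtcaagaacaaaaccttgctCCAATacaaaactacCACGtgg
PDIL1-1, chr1:7645360-7645609, plus strand: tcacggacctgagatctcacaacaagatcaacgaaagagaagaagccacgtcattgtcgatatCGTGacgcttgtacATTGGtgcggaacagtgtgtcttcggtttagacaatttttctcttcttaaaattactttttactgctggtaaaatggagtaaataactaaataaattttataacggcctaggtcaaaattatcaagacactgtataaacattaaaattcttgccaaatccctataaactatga
BIP3 holds 2 copies of the element on the reverse strand, and the other 3 genes hold 1 each. PDIL1-1 had 464, 527 and 399 CPM in salt-treated leaves, against 110.5, 135 and 108 CPM in mock leaves (log2 1.98, SE 0.20).

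The cell cycle list showed 2 opposite movements. Among its 54 tested members 21 rose and 17 fell, and they separated by their role. A cell must first license its DNA for copying, by loading the MCM2 to MCM7 helicase with the help of the origin recognition complex (ORC) and CDT1, and then copy it. B-type cyclins, CDKB kinases and the machinery of the cell plate act later, in mitosis and cytokinesis. List members were assigned to roles after their values were seen, and the list's count of falls was 10 without salt replicate 2, 9 without salt replicate 3 and 8 without mock replicate 1. The genes with values in the next 2 paragraphs were chosen after their values were seen, except MCM2 and ORC2.

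Licensing and replication genes were called higher in 17 of 20 cases and lower in 1, CDT1B, with a median log2 fold change of 1.32. MCM2 had 21.4, 19.7 and 24.7 CPM in salt-treated leaves, against 5.68, 5.03 and 6.75 CPM in mock leaves (log2 1.91, SE 0.21, adjusted p = 0.000105). ORC2 had 3.00, 3.35 and 2.97 CPM in salt-treated leaves, against 0.925, 0.902 and 0.620 CPM in mock leaves (log2 1.92, SE 0.26). All 6 MCM helicase genes rose, and the others among them had log2 fold changes of 1.62 for MCM3, 1.74 for MCM4, 1.33 for MCM5, 1.45 for MCM6 and 1.31 for MCM7. RNR1, the large subunit of the enzyme that makes DNA building blocks, had 51.9, 50.5 and 50.3 CPM in salt-treated leaves, against 22.5, 18.8 and 16.0 CPM in mock leaves (log2 1.42, SE 0.15). PCNA1, the clamp that holds the DNA polymerase, had 13.0, 12.3 and 10.7 CPM in salt-treated leaves, against 4.56, 3.74 and 3.41 CPM in mock leaves (log2 1.62, SE 0.21). Levels were low but the groups were apart in each of these genes.

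Mitosis and cytokinesis genes were called lower in 14 of 17 cases and higher in none, with a median log2 fold change of -1.14. The count was 8 without salt replicate 2, 6 without salt replicate 3, 6 without mock replicate 1 and 9 without mock replicate 2, while the median lay between -1.28 and -1.01 in every fit that left out 1 library. KN, a syntaxin that fuses vesicles into the cell plate, had 3.41, 3.59 and 2.58 CPM in salt-treated leaves, against 9.18, 8.57 and 6.57 CPM in mock leaves (log2 -1.34, SE 0.20, adjusted p = 0.000473). PLE, a microtubule-bundling protein of the same structure, had 1.23, 1.82 and 1.01 CPM in salt-treated leaves, against 5.29, 2.96 and 4.03 CPM in mock leaves (log2 -1.59, SE 0.31). CDKB2;1, a kinase of mitosis, had 4.3, 4.3 and 3.42 CPM in salt-treated leaves, against 9.05, 7.67 and 5.45 CPM in mock leaves (log2 -0.88, SE 0.22). Every salt library lay under every mock library in these genes.

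D-type and A3-type cyclins with E2F factors gave 2 rises in 9 genes and no fall, with 1 rise in 4 of the fits that left out a library and none without mock replicate 2. The shares of all genes tested, for this role and the next, were 20.3% higher and 21.1% lower. Among inhibitors of cyclin-dependent kinases, 2 of 8 rose and 2 fell. Those counts were 1 and 0 in a model of the wild-type libraries alone, and 0 and 2 when it also had the block. There was 1 rise without salt replicate 3, and 1 fall without salt replicate 2, mock replicate 1 or mock replicate 3 each. SMR5, an inhibitor known to respond to reactive oxygen, had 6.21, 2.00 and 12.8 CPM in salt-treated leaves, against 0.198, 1.48 and 0.681 CPM in mock leaves (log2 3.14, SE 0.72). Its log2 fold change was 2.36 without salt replicate 3 and 3.95 without mock replicate 2. CYCD2;1, a cyclin that acts before DNA synthesis, had 32.2, 31.5 and 27.4 CPM in salt-treated leaves, against 26.5, 26.6 and 27.2 CPM in mock leaves and was not called (log2 0.18, adjusted p = 0.292).

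**Figure D3:**
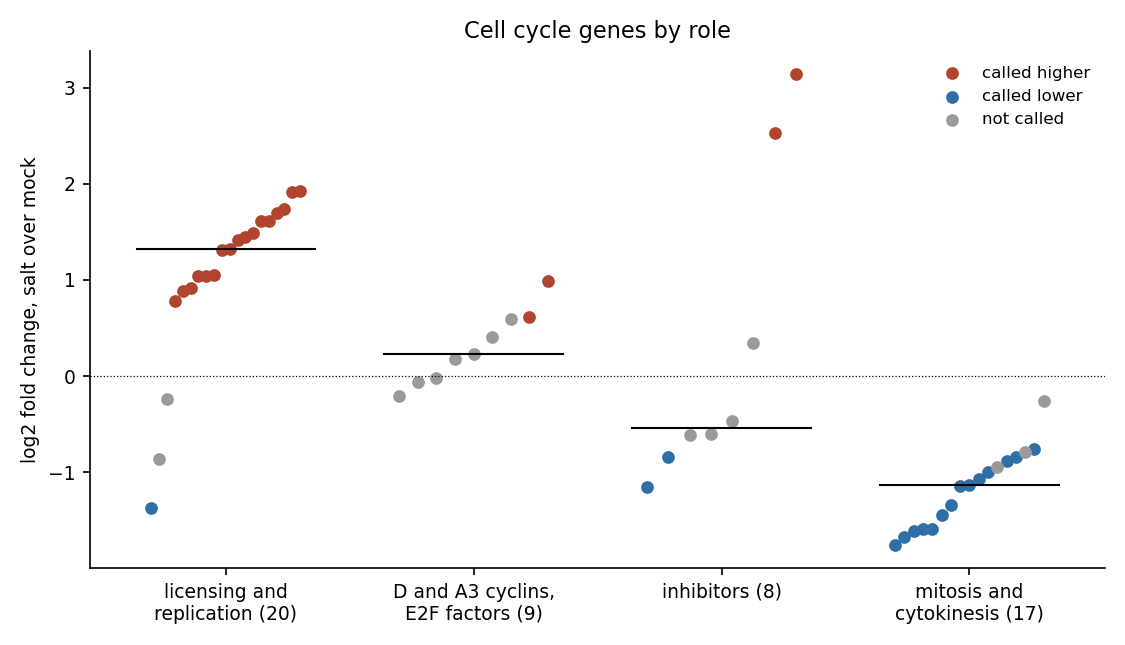
Log2 fold change of salt over mock for 54 cell cycle genes, each point a gene, grouped by role with the number tested in brackets and bars at the group medians. Licensing and replication genes stood around 1.32 and mitosis and cytokinesis genes around -1.14. Genes were assigned to roles after their values were seen.

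The core of the E2F binding site, TTCCCGC, was found on either strand in the promoters of 9 of the 54 cell cycle genes (16.7%) and of 1.23% of all promoters. Of the 9 genes, 8 were called higher and 1 lower. All 9 are licensing and replication genes, a role in which 17 of 20 were called higher. Over all promoters the core did not go with direction. It was in 231 of them, 50 of genes called higher and 50 of genes called lower. These were 1.31% of genes called higher and 1.26% of genes called lower. A core of the MSA element, AACGG, known from promoters of mitotic genes, was found on either strand in 23 of the 54 promoters (42.6%) and in 22.1% of all promoters. Of these 23 genes, 7 were called higher and 9 lower. E2F factors are known to switch on replication genes as cells enter DNA synthesis. Promoters of 4 replication genes that rose are shown with this core in capitals, from the same assembly and on the strand of the gene. They were chosen after the values were seen.
ORC2, chr2:15758351-15758600, plus strand: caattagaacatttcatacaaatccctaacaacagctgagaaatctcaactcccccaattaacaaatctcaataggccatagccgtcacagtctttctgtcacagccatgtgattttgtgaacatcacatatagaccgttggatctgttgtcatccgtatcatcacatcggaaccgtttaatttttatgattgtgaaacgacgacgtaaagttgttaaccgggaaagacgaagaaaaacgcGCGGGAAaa
MCM2, chr1:16969964-16970213, plus strand: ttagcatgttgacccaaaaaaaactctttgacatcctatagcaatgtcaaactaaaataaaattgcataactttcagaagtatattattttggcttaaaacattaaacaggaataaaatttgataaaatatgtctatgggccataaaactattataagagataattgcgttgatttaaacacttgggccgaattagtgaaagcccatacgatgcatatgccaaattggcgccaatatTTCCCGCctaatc
MCM3, chr5:18773707-18773956, minus strand: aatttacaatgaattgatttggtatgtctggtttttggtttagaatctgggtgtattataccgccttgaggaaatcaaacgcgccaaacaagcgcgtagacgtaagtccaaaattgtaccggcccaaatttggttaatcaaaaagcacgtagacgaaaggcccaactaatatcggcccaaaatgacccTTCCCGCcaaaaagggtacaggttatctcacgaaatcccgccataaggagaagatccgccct
CDT1A, chr2:13328612-13328861, plus strand: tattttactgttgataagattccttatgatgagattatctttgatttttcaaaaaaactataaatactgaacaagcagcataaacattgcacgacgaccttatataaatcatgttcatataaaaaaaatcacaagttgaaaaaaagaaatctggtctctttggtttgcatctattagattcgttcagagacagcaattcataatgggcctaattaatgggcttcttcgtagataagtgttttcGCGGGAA
The core starts 9, 13, 62 and 7 bases before the gene start in ORC2, MCM2, MCM3 and CDT1A in this order. CDT1A, a licensing factor, had 8.53, 6.77 and 6.28 CPM in salt-treated leaves, against 2.91, 1.48 and 2.23 CPM in mock leaves (log2 1.7, SE 0.29). CDT1B, the other gene of this factor, also holds the core and was lower, with 0.546, 0.824 and 0.448 CPM in salt-treated leaves, against 1.72, 1.55 and 1.49 CPM in mock leaves (log2 -1.37, SE 0.31).

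Genes for expressing the plastid genome were called lower in 25 of 41 cases and higher in none, with a median log2 fold change of -0.71. Chloroplasts transcribe their own genes with a plastid RNA polymerase that needs sigma factors and associated proteins from the nucleus, and translate them on bacterial-type ribosomes. Summed over the list the level was 4671 to 5435 CPM in salt-treated leaves and 7679 to 9179 CPM in mock leaves. SIG4, a sigma factor, had 21.1, 20.9 and 21.8 CPM in salt-treated leaves, against 82.5, 58.8 and 77.9 CPM in mock leaves (log2 -1.78, SE 0.24, adjusted p = 0.000307). SIG6, another sigma factor, had 51.9, 41.8 and 47.8 CPM in salt-treated leaves, against 131, 96.0 and 111 CPM in mock leaves (log2 -1.26, SE 0.16). CRB, an RNA-binding protein of the chloroplast, had 452, 370.1 and 381 CPM in salt-treated leaves, against 1180.5, 892 and 1090.3 CPM in mock leaves (log2 -1.39, SE 0.17). The groups were apart in all 3 genes.

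Plastid translation factors fell too. FUG1, the initiation factor, had 199, 173 and 225 CPM in salt-treated leaves, against 507, 416 and 506 CPM in mock leaves (log2 -1.26, SE 0.17). SCO1, the elongation factor G of plastids, had 352, 289 and 322 CPM in salt-treated leaves, against 817, 629.5 and 670.0 CPM in mock leaves (log2 -1.14, SE 0.15). PTAC2, a protein of the transcribing plastid chromosome, had 26.9, 19.4 and 22.9 CPM in salt-treated leaves, against 55.0, 47.0 and 42.1 CPM in mock leaves (log2 -1.06, SE 0.15). SIG6, SCO1 and PTAC2 were chosen for naming after their values were seen, and each stood lower in all salt libraries.

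Photorespiration recycles the product that rubisco makes when it uses oxygen in place of carbon dioxide, through chloroplast, peroxisome and mitochondrion. Of 20 genes in a list put together after the losses above had been seen, 15 were called lower and 2 higher. The summed level was 11620 to 14000 CPM in salt-treated leaves and 26012 to 32632 CPM in mock leaves. GLDP1, the P-protein of mitochondrial glycine decarboxylase, had 1375, 1219 and 1452 CPM in salt-treated leaves, against 4951, 3614 and 4503 CPM in mock leaves (log2 -1.69, SE 0.20, adjusted p = 0.000141). In the peroxisome, HPR, hydroxypyruvate reductase, chosen after its value was seen, had 391, 327 and 432 CPM in salt-treated leaves, against 1284, 1003 and 1176 CPM in mock leaves (log2 -1.59, SE 0.19). GLDP1 and HPR were lower in every salt library. The 2 members called higher were DIT2.1 and DiT1, dicarboxylate transporters of the plastid envelope, with log2 fold changes of 0.80 and 0.44. In 5 of the 6 fits that left out a library, all but the one without salt replicate 3, 1 member was called higher.

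Peroxins, the proteins that build and divide peroxisomes, were called lower in 9 of 17 cases and higher in 1, a rise that was called in none of the 6 fits that left out a library. PEX11D, which acts in peroxisome division, had 103, 103 and 111 CPM in salt-treated leaves, against 305, 258 and 266 CPM in mock leaves (log2 -1.39, SE 0.14, adjusted p = 7.28e-05). PEX14, which docks imported proteins, had 86.1, 78.0 and 99.1 CPM in salt-treated leaves, against 189.9, 142 and 177 CPM in mock leaves (log2 -0.95, SE 0.17). Both peroxins, chosen after their values were seen, were lower in every salt library. Fatty acid breakdown in the peroxisome gave 6 rises and 2 falls in 22 genes, or 9 and 5 with the replicate number as a block. ACX1, an acyl-CoA oxidase that also serves jasmonate synthesis, had 334, 521 and 543 CPM in salt-treated leaves, against 127, 186 and 123 CPM in mock leaves (log2 1.68, SE 0.26). PMDH2, the malate dehydrogenase that peroxisomes of green leaves use, had 599, 551 and 576 CPM in salt-treated leaves, against 1624, 1439 and 1527 CPM in mock leaves (log2 -1.41, SE 0.13). ACX1 was higher and PMDH2 lower in every salt library.

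Leaf starch genes were called lower in 16 of 33 cases and higher in 2, with a median log2 fold change of -0.56. Starch is laid down in chloroplasts by day and broken down at night, after the kinase SEX1 has phosphorylated it. SEX1 had 367, 529 and 312 CPM in salt-treated leaves, against 951, 1188 and 1012 CPM in mock leaves (log2 -1.38, SE 0.22, adjusted p = 0.000714). BAM6, a beta-amylase, had 10.8, 9.18 and 10.5 CPM in salt-treated leaves, against 55.8, 33.6 and 45.0 CPM in mock leaves (log2 -2.14, SE 0.21). GPT2, which carries glucose phosphate into plastids, moved the other way, with 104, 161 and 91.3 CPM in salt-treated leaves, against 29.6, 27.3 and 32.2 CPM in mock leaves (log2 2.00, SE 0.51). Of 15 genes for trehalose phosphate, a sugar signal, 5 fell and 1 rose. The phosphatase TPPH had 4.3, 2.47 and 3.59 CPM in salt-treated leaves, against 28.5, 21.7 and 35.4 CPM in mock leaves (log2 -3.05, SE 0.28), without overlap.

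In a list for breakdown of branched-chain amino acids, 11 of 16 genes were called lower and 1 higher, with a median log2 fold change of -1.11. The list also counts the proteins that pass electrons on to ubiquinone and genes for other amino acids, such as THA1 for threonine. Genes of branched-chain amino acid breakdown are known to rise when a leaf runs short of sugar. MCCA, a subunit of methylcrotonyl-CoA carboxylase in leucine breakdown, had 17.8, 19.7 and 27.2 CPM in salt-treated leaves, against 59.0, 90.6 and 70.4 CPM in mock leaves (log2 -1.77, SE 0.28, adjusted p = 0.000687). IVD, isovaleryl-CoA dehydrogenase of the same path, had 51.4, 43.9 and 66.9 CPM in salt-treated leaves, against 117, 135 and 96.8 CPM in mock leaves (log2 -1.11, SE 0.23). ETFQO, which hands the electrons to ubiquinone, had 17.4, 14.8 and 19.2 CPM in salt-treated leaves, against 36.1, 40.1 and 40.2 CPM in mock leaves (log2 -1.18, SE 0.15). All 3 were lower in every salt library, and IVD and ETFQO were chosen after their values were seen.

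Of 20 genes known to respond to impaired mitochondria, 9 were called higher and 1 lower, with a median log2 fold change of 0.96. AOX1D, an alternative oxidase, had 519, 552 and 721 CPM in salt-treated leaves, against 1.39, 9.47 and 2.48 CPM in mock leaves (log2 7.07, SE 0.82, adjusted p = 0.000145, or log2 8.26 without mock replicate 2). AOX1A, the alternative oxidase most often used as a marker of mitochondrial stress, had 659, 477 and 987 CPM in salt-treated leaves, against 653, 452 and 935 CPM in mock leaves, and was not called (log2 0.06, adjusted p = 0.923). The levels of AOX1A overlapped almost fully, while AOX1B and AOX1D did not overlap. NDB2, an alternative NADH dehydrogenase, had 205, 284 and 232 CPM in salt-treated leaves, against 46.7, 83.3 and 41.8 CPM in mock leaves (log2 2.07, SE 0.26). GSTU25, a glutathione transferase, had 13.9, 15.9 and 13.2 CPM in salt-treated leaves, against 1.12, 0.773 and 0.558 CPM in mock leaves (log2 4.12, SE 0.29). Both of these were higher in every salt library, and NDB2 was chosen after its value was seen.

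A list of the tricarboxylic acid cycle and complex IV, with related genes such as those of cytochrome c, gave 8 rises and 1 fall in 21 genes. There were 4 rises without salt replicate 2, mock replicate 1 or mock replicate 3 each, and 5 with upper quartile scaling. IDH2, a subunit of isocitrate dehydrogenase, had 77.4, 96.9 and 81.3 CPM in salt-treated leaves, against 41.8, 47.4 and 37.5 CPM in mock leaves (log2 1.01, SE 0.13, adjusted p = 0.000185). CYTC-2, a cytochrome c, had 57.3, 61.0 and 68.8 CPM in salt-treated leaves, against 35.3, 32.9 and 28.7 CPM in mock leaves (log2 0.95, SE 0.14). Both changes were near 2-fold, and the groups overlapped in neither gene.

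**Figure D4:**
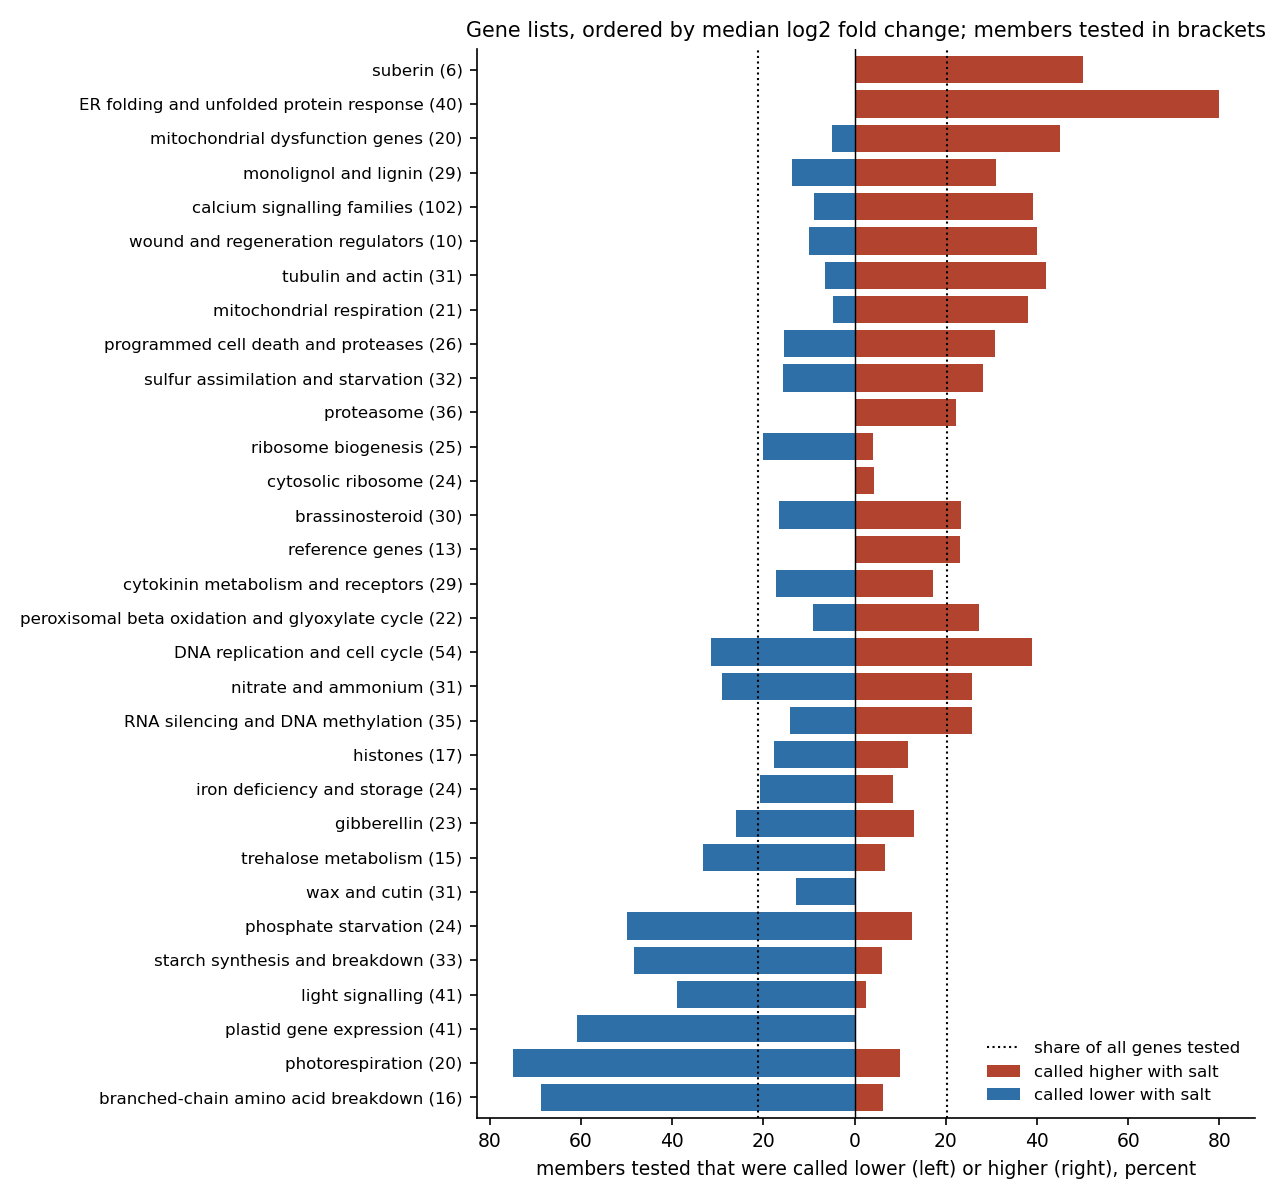
Share of the tested members of each gene list that were called higher (right) or lower (left) with salt, ordered by the median log2 fold change of the list. Dotted lines mark the shares of all genes tested, 20.3% higher and 21.1% lower. ER folding, at 32 of 40, reached the highest share on the right and photorespiration, at 15 of 20, the highest on the left. The photorespiration list was put together after losses among its genes had been seen. The next share on the left was that of branched-chain amino acid breakdown, at 11 of 16, a list that also holds genes for other amino acids.

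Light signalling genes were called lower in 16 of 41 cases and higher in 1, and in 25 of 41 and in 1 with the replicate number as a block, a model that called 51.1% of all genes, 25.1% higher and 26% lower. Phytochromes, cryptochromes and phototropins sense light, and PIF factors carry the signal to growth genes. CRY1, a blue light receptor, had 160.3, 176 and 185 CPM in salt-treated leaves, against 358, 311 and 342 CPM in mock leaves (log2 -0.96, SE 0.18, adjusted p = 0.0021). PHYA, the far-red receptor, had 59.1, 58 and 79.3 CPM in salt-treated leaves, against 107, 174 and 111 CPM in mock leaves (log2 -0.99, SE 0.24). PIF7 had 26.8, 21.2 and 25.3 CPM in salt-treated leaves, against 44.1, 36.7 and 58.2 CPM in mock leaves (log2 -0.92, SE 0.18). All 3 were lower in each salt library, and were chosen for naming after their values were seen.

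At the cell surface, 25 of 47 tested receptor-like proteins (RLP), with the receptor kinases PEPR1 and PEPR2 counted among them, were called higher and 2 lower. Of 33 cysteine-rich receptor-like kinases (CRK), 18 rose and 1 fell. RLP23, the receptor for a peptide of microbial toxins, had 255, 349 and 256 CPM in salt-treated leaves, against 18.6, 23 and 23.1 CPM in mock leaves (log2 3.72, SE 0.20, adjusted p = 7.01e-06). Its replicates lay close together in both groups. CRK37 had 62.3, 49.3 and 67.3 CPM in salt-treated leaves, against 1.59, 2.58 and 1.3 CPM in mock leaves (log2 5.03, SE 0.53), with all salt libraries far above all mock libraries.

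Of 102 genes in the calcium families, 40 were called higher and 9 lower, or 50 and 15 with the replicate number as a block, and 43 and 14 without mock replicate 2. Calcium entering the cytosol is read by calmodulins and calcium-dependent kinases (CPK) and pumped away by exchangers (CAX). Of 23 calcium-dependent kinase genes, 13 rose and none fell. CPK4, a kinase known to act in abscisic acid signalling, had 67.2, 84.1 and 77.9 CPM in salt-treated leaves, against 23.9, 41.1 and 27.8 CPM in mock leaves (log2 1.3, SE 0.21, adjusted p = 0.000707). CAX3, a calcium-proton exchanger of the vacuole, had 208, 159 and 323 CPM in salt-treated leaves, against 23.8, 7.93 and 25.7 CPM in mock leaves (log2 3.59, SE 0.42). CAX4, another member, had 4.71, 4.24 and 9.70 CPM in salt-treated leaves, against 0.0661, 0.0644 and 0.0620 CPM in mock leaves (log2 6.42, SE 1.08). CAX4 was almost without counts in mock leaves, and the groups did not overlap in either exchanger.

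In 2 families of secretion genes described here every call was a rise. The other families of vesicle traffic listed next gave calls in both directions, except genes with SEC symbols, which gave only rises. Shares of all genes tested were 20.3% higher and 21.1% lower. Genes annotated as Rab GTPase homologs gave 12 rises and 5 falls in 36, and syntaxins 5 and 4 in 18. Genes with symbols that begin with VPS gave 6 and 3 in 28, and those that begin with SEC gave 8 and 0 in 15. The exocyst complex tethers secretory vesicles to the plasma membrane. Genes annotated as exocyst subunits, all of them for forms of its EXO70 subunit, were called higher in 10 of 16 cases and lower in none. EXO70H2 had 23.3, 27.4 and 30.8 CPM in salt-treated leaves, against 3.96, 2.96 and 5.82 CPM in mock leaves (log2 2.67, SE 0.42, adjusted p = 0.0007). EXO70B2, known for its part in immunity, had 252, 304 and 424 CPM in salt-treated leaves, against 34.4, 118 and 98.6 CPM in mock leaves (log2 1.97, SE 0.49). RABA GTPases, which mark secretory vesicles, rose in 8 of 19 cases and fell in none. RABA4B had 49.0, 46.4 and 36.8 CPM in salt-treated leaves, against 18.2, 22.4 and 19.5 CPM in mock leaves (log2 1.14, SE 0.16). Each of these 3 genes was higher in every salt library.

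Cell wall families and WRKY factors gave more rises than falls. Arabinogalactan proteins, sugar-rich proteins of the wall, were called higher in 13 of 22 cases and lower in 2. AGP18 had 99.0, 72.1 and 77.6 CPM in salt-treated leaves, against 16.3, 14.6 and 16.7 CPM in mock leaves (log2 2.38, SE 0.22, adjusted p = 5.17e-05). XTH enzymes, which cut and rejoin xyloglucan, were called higher in 10 of 24 cases and lower in none, with a median log2 fold change of 2.05. In a model of the wild-type libraries alone 20 members were tested and 7 rose, with a median of 0.67, and over the same 20 members the median was 0.65 as reported. Of the 24 members, 22 passed a filter of at least 1 CPM in 3 libraries, with a median of 1.18. XTH29 had 4.91, 7.53 and 8.18 CPM in salt-treated leaves, against 0.330, 0.644 and 0.496 CPM in mock leaves (log2 3.79, SE 0.36). WRKY factors were called higher in 25 of 53 cases and lower in 3, or 32 and 5 with the replicate number as a block. WRKY8, a factor known from wounding and salt, had 27.4, 29.9 and 45.4 CPM in salt-treated leaves, against 2.31, 3.09 and 2.85 CPM in mock leaves (log2 3.63, SE 0.24). The groups overlapped in none of these 3 genes.

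Other families gave more falls than rises. Ubiquitin-conjugating enzymes, which pass ubiquitin to target proteins, were called lower in 15 of 33 cases and higher in 1, with 9 lower without salt replicate 2. UBC17 had 6.21, 7.59 and 9.42 CPM in salt-treated leaves, against 39.8, 75.1 and 41.4 CPM in mock leaves (log2 -2.75, SE 0.28, adjusted p = 8.26e-05). Its groups were apart. Homeobox factors were called lower in 11 of 21 cases and higher in none, with 6 lower without salt replicate 2, 7 without mock replicate 1, and 6 lower and 1 higher without mock replicate 3. HB25 had 1.98, 1.77 and 4.32 CPM in salt-treated leaves, against 13.1, 11.9 and 18.0 CPM in mock leaves (log2 -2.40, SE 0.45). The families were described because of their high shares of called genes among 49 symbol stems and 169 product families, so their counts are not independent of that choice. Some families with higher shares than RABA are not described, such as calmodulin-binding proteins, with 10 rises and 0 falls in 16. Genes named from families on receptors, calcium, secretion, cell walls and transcription factors were chosen after their values were seen, except RLP23, CAX3 and CAX4.

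Nitrogen genes were called higher in 8 and lower in 9 of 31 cases, beside 20.3% higher and 21.1% lower among all genes tested. NRT1.8, which takes nitrate back out of the xylem, had 307, 149 and 472 CPM in salt-treated leaves, against 7.80, 4.38 and 12.4 CPM in mock leaves (log2 5.24, SE 0.59, adjusted p = 0.000122). WR3, a partner protein of high-affinity nitrate transporters, had 141, 137 and 165 CPM in salt-treated leaves, against 35.3, 28.2 and 34.3 CPM in mock leaves (log2 2.18, SE 0.20). NIR1, nitrite reductase, had 171, 144 and 158 CPM in salt-treated leaves, against 328, 224 and 373 CPM in mock leaves (log2 -0.97, SE 0.18). Both transport genes were higher in every salt library, and the reductase, chosen after its value was seen, was lower in every one.

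Genes of the response to phosphate shortage, most of which are known to rise when phosphate is short, were called lower in 12 of 24 cases and higher in 3, with a median log2 fold change of -0.54. SPX1, a sensor of phosphate supply, had 19.9, 11.1 and 20.1 CPM in salt-treated leaves, against 65.1, 43.7 and 41.4 CPM in mock leaves (log2 -1.56, SE 0.28, adjusted p = 0.00154). PHO2, an enzyme that has phosphate transporters degraded and whose own mRNA is known to fall when phosphate is short, had 47.5, 70.4 and 57.5 CPM in salt-treated leaves, against 143, 145 and 149 CPM in mock leaves (log2 -1.32, SE 0.18). PPCK1, a kinase that acts on phosphoenolpyruvate carboxylase, was among the rises with 99.9, 59.8 and 114 CPM in salt-treated leaves, against 19.7, 6.96 and 21.1 CPM in mock leaves (log2 2.52, SE 0.41). SPX1 and PHO2, both chosen after their values were seen, were lower and PPCK1 higher in every salt library.

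Sulfur genes gave 9 rises and 5 falls in 32, where 20.3% of all genes tested rose and 21.1% fell. LSU1, a small protein of sulfur shortage, had 29.3, 21.5 and 23.9 CPM in salt-treated leaves, against 6.61, 4.06 and 3.78 CPM in mock leaves (log2 2.37, SE 0.38, adjusted p = 0.000855). SIR, sulfite reductase, had 436, 460.4 and 396 CPM in salt-treated leaves, against 522, 494 and 471 CPM in mock leaves and was not called (adjusted p = 0.225). Of 24 iron genes, 2 rose and 5 fell, or 3 and 8 with the replicate number as a block, and 2 fell without salt replicate 1, salt replicate 2 or mock replicate 1 each. BTS, a ubiquitin ligase that senses iron, had 155, 331 and 208 CPM in salt-treated leaves, against 103, 144 and 104 CPM in mock leaves (log2 0.99, SE 0.25), with the groups apart.

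Growth hormone lists gave calls in both directions, at shares near those of all genes tested, 20.3% higher and 21.1% lower. Among 23 gibberellin genes 3 rose and 6 fell, or 5 and 10 in a model of the wild-type libraries alone with the block. GA2OX2, which inactivates gibberellin, had 24, 22.4 and 25.5 CPM in salt-treated leaves, against 2.05, 4.0 and 2.73 CPM in mock leaves (log2 3.02, SE 0.31, adjusted p = 7.97e-05). GA3OX1, which makes active gibberellin, had 2.73, 1.59 and 1.46 CPM in salt-treated leaves, against 7.00, 11.1 and 3.90 CPM in mock leaves (log2 -1.94, SE 0.50). The inactivating enzyme was higher and the synthetic enzyme lower in every salt library.

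Of 30 brassinosteroid genes 7 rose and 5 fell, with 3 falls without salt replicate 1, salt replicate 2 or mock replicate 2 each. BEE2, a growth factor that brassinosteroid induces, had 7.71, 8.18 and 7.62 CPM in salt-treated leaves, against 20.5, 30.4 and 25.4 CPM in mock leaves (log2 -1.70, SE 0.28). Of 29 cytokinin genes 5 rose and 5 fell, or 3 and 5 in a model of the wild-type libraries alone and 3 and 6 when it also had the block. UGT85A1, which attaches glucose to cytokinin, had 381, 326 and 478 CPM in salt-treated leaves, against 39.2, 44.3 and 35.9 CPM in mock leaves (log2 3.31, SE 0.32, adjusted p = 6.65e-05). AHP4, a phosphotransfer protein of the cytokinin relay, had 13.7, 14.2 and 7.01 CPM in salt-treated leaves, against 51.9, 79.5 and 48.9 CPM in mock leaves (log2 -2.37, SE 0.28). Groups did not overlap in any of these genes.

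Regulators of wounding and regeneration were called higher in 4 of 10 cases and lower in 1. ERF115, which acts where neighbouring cells have died, had 11.1, 9.47 and 13.0 CPM in salt-treated leaves, against 1.45, 2.00 and 1.18 CPM in mock leaves (log2 2.85, SE 0.27, adjusted p = 5.42e-05). RAP2.6, an ERF factor, had 54.3, 54.4 and 118 CPM in salt-treated leaves, against 9.58, 12.6 and 7.56 CPM in mock leaves (log2 2.93, SE 0.35). Wounding belongs to detaching a leaf, and its part in these rises was not tested. Lignin genes gave 9 rises and 4 falls in 29, beside 20.3% higher and 21.1% lower among all genes tested. PAL4, an enzyme at the entry to the pathway, had 18.5, 46.3 and 29.2 CPM in salt-treated leaves, against 4.56, 5.67 and 3.53 CPM in mock leaves (log2 2.77, SE 0.34). Of 26 suberin genes, a wall polymer mostly of roots and healed wounds, 6 were tested and 3 rose. The summed level of all 26 was 10.4 to 21.4 CPM in salt-treated leaves and 4.71 to 6.83 CPM in mock leaves. Wax and cutin genes were called lower in 4 of 31 cases and higher in none, or 7 and 1 with the replicate number as a block, and 7 lower without mock replicate 2. CER8, an acyl-CoA synthetase for wax and cutin, had 17.1, 10.6 and 11.0 CPM in salt-treated leaves, against 36.3, 26.5 and 42.7 CPM in mock leaves (log2 -1.45, SE 0.27).

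Genes of basic cell machinery gave few calls, set beside shares of 20.3% higher and 21.1% lower among all genes tested. A broad family of 252 tested genes annotated as ribosomal gave 16 rises and 26 falls. Proteins of the cytosolic ribosome were listed only where their symbols begin with RPL, RPS or RPP. They were called higher in 1 of 24 cases and lower in none, or 5 and 0 with the replicate number as a block. RPS5A, one of them, had 327, 252 and 273 CPM in salt-treated leaves, against 274, 265 and 246 CPM in mock leaves (log2 0.12, adjusted p = 0.598). Ribosome biogenesis factors gave 1 rise and 5 falls in 25, or 5 and 5 with the replicate number as a block, 5 and 4 without mock replicate 2, and 1 and 3 without salt replicate 3. Proteasome subunits were called higher in 8 of 36 cases, near the share of all genes, and lower in none. These 2 counts were 13 and 1 with the replicate number as a block. Counts of proteasome rises were 2 without salt replicate 2, 5 without salt replicate 3, 4 without mock replicate 1, 2 without mock replicate 3 and 2 with upper quartile scaling. Histone genes rose in 2 and fell in 3 of 17 cases, or 4 and 5 with the replicate number as a block, with 1 fall without salt replicate 2, mock replicate 1 or mock replicate 3 each.

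Of 31 tubulin, actin and related genes, 13 rose and 2 fell. Shares of all genes tested, for this and the next 2 lists, were 20.3% higher and 21.1% lower. TUA2, an alpha-tubulin, had 138, 139.9 and 104 CPM in salt-treated leaves, against 47.0, 43.4 and 41.0 CPM in mock leaves (log2 1.54, SE 0.16, adjusted p = 9.10e-05). ACT7, an actin, had 471, 487 and 387 CPM in salt-treated leaves, against 392, 447 and 366 CPM in mock leaves and was not called (log2 0.16, adjusted p = 0.452). Among cell death genes and proteases 8 of 26 rose and 4 fell. MC8, a metacaspase, had 46.7, 39.0 and 80.7 CPM in salt-treated leaves, against 4.03, 12.2 and 12.5 CPM in mock leaves (log2 2.54, SE 0.44). RNA silencing and DNA methylation genes gave 9 rises and 5 falls in 35, or 10 and 8 with the replicate number as a block and 6 and 8 with upper quartile scaling. Without salt replicate 1 or mock replicate 1 there were 7 rises and 3 falls, and without mock replicate 3 there were 5 and 3. AGO3, an Argonaute, had 18.8, 12.8 and 25.8 CPM in salt-treated leaves, against 3.63, 4.77 and 3.90 CPM in mock leaves (log2 2.22, SE 0.41), and AGO1, the main Argonaute for microRNAs, had 107, 117 and 127 CPM in salt-treated leaves, against 107, 116 and 105 CPM in mock leaves and was not called (adjusted p = 0.489). AGO3 and TUA2 were higher in every salt library.

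Of 13 genes often used as stable references in leaves, 3 were called higher and none lower, with a median log2 fold change of 0.07. The median was -0.01 with upper quartile scaling. With the replicate number as a block 4 were called higher and 2 lower, 1 was called higher without salt replicate 1 or salt replicate 2, and none was called without mock replicate 1 or mock replicate 3. AP2M had 109.7, 122 and 119.6 CPM in salt-treated leaves, against 92.7, 89.8 and 94.8 CPM in mock leaves (log2 0.34, SE 0.11, adjusted p = 0.0302), and lost its call without 1 library in 5 of 6 such fits.

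Markers of leaf cell types were read beside these results. The marker sets are small, and 21.1% of all genes tested were called lower. Mesophyll markers were called lower in 3 of 5 cases, with a summed level of 8346 to 10389 CPM in salt-treated leaves and 13700 to 14609 CPM in mock leaves. Sieve element markers were called lower in 2 of 3 cases, at 39.5 to 48.8 CPM in salt-treated leaves and 66.8 to 113 CPM in mock leaves, and companion cell markers in 2 of 5 cases, at 929.9 to 1003 CPM in salt-treated leaves and 1161 to 1362 CPM in mock leaves. Guard cell markers were called lower in 2 of 6 cases, at 57.1 to 60.9 CPM in salt-treated leaves and 59.5 to 77.2 CPM in mock leaves, and epidermis markers in 1 of 3 (2 in the model with the block), at 93.7 to 137 CPM in salt-treated leaves and 145 to 224 CPM in mock leaves. No trichome (3 tested), xylem (4), myrosin cell (3), root (3) or flower (1) marker was called, and all 3 shoot meristem markers had 0 counts in the 6 libraries. In bulk leaves, fewer cells of a type and less RNA per cell cannot be told apart, and the part of cell composition in the falls of chloroplast genes was not tested.

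Called genes were also found side by side on the chromosomes. The longest run of neighbouring tested genes that all rose at least 2-fold held 7 genes on chromosome 1, from 4620101 to 4638330 on the minus strand (TAIR10.1), all annotated as hypothetical proteins with the DUF1262 domain. AT1G13480 had 222, 159.8 and 339 CPM in salt-treated leaves, against 4.10, 10.6 and 6.69 CPM in mock leaves (log2 5.07, SE 0.50, adjusted p = 7.24e-05). AT1G13470 had 119.6, 169.7 and 117 CPM in salt-treated leaves, against 15.5, 21.5 and 17.2 CPM in mock leaves (log2 2.91, SE 0.17). AT1G13520 had 104, 131 and 196 CPM in salt-treated leaves, against 1.19, 20.4 and 7.12 CPM in mock leaves (log2 3.90, or 5.10 without mock replicate 2). The groups were apart in all 3 genes.

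The remaining 4 genes of the run had fewer counts. AT1G13530 had 5.19, 4.35 and 9.42 CPM in salt-treated leaves, against 0.661, 1.03 and 1.86 CPM in mock leaves (log2 2.4, SE 0.44), and AT1G13540 and AT1G13550 had log2 fold changes of 2.13 and 2.56. AT1G13490 had 1.09, 0.471 and 2.63 CPM in salt-treated leaves, against 0, 0.193 and 0 CPM in mock leaves (log2 4.28, adjusted p = 0.0181). Its adjusted p was 0.0706 without salt replicate 3, 0.0616 without mock replicate 1 and 0.0635 without mock replicate 3, and its log2 fold change was 7.31 without mock replicate 2. At most 5.82% of the 50-base exon stretches of any of the 7 genes occur elsewhere in the genome.

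Of the other runs, 5 genes rose side by side on chromosome 1, from 20987128 to 21018122, namely 4 leucine-rich repeat kinases and a SAUR-like gene, and 5 on chromosome 5, from 18421985 to 18449446. Of the kinases, AT1G56145 had 13.8, 19.9 and 20.2 CPM in salt-treated leaves, against 5.15, 6.70 and 4.83 CPM in mock leaves (log2 1.69, SE 0.21, adjusted p = 0.000172). AT1G56140, another of the kinases, had 109.9, 125 and 159 CPM in salt-treated leaves, against 34.1, 91.5 and 45.4 CPM in mock leaves (log2 1.20, adjusted p = 0.0335). Its adjusted p was 0.0613 without salt replicate 2, 0.0984 without salt replicate 3, 0.111 without mock replicate 1 and 0.108 without mock replicate 3. In the run on chromosome 5, AT5G45510 had 331, 454 and 423 CPM in salt-treated leaves, against 108, 134 and 137 CPM in mock leaves (log2 1.67, SE 0.15). Another 12 runs of 4 genes rose and 4 runs of 4 fell. They included beta-1,3-glucanases, where BGL2 had 575, 1055 and 637 CPM in salt-treated leaves, against 23.7, 35.1 and 12.6 CPM in mock leaves (log2 4.99, SE 0.49), and nitrilases, with NIT1 above. Among falls there were 4 cytochrome P450 genes, of which CYP72A15 had 142, 80.7 and 140.2 CPM in salt-treated leaves, against 549, 272 and 558 CPM in mock leaves (log2 -1.92, SE 0.41). Groups were apart in these genes, of which BGL2 and CYP72A15 were chosen after their values were seen.

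Promoters of called genes differed in short motifs. The W-box core TTGAC, which WRKY factors bind, was found on either strand in the 250 bases before the start of 53.1% of genes called higher and 58.3% of those higher by at least 2-fold, against 39.3% of genes called lower, 44.8% of genes not called and 45.3% of all. The I-box GATAAG is known from promoters of light-regulated genes. It was in 10.9% of genes called higher, 12% of those higher by at least 2-fold, 14.8% of genes called lower and 12.5% of all. Site II, TGGGCC, is known from ribosomal and replication genes. It was in 14.5% of genes called higher, 10.2% of those higher by at least 2-fold, 17.3% of genes called lower and 17% of all. The abscisic acid response element core ACGTG stood at 25.2% of genes called higher, 27.4% of those higher by at least 2-fold, 23.8% of genes called lower and 23.7% of all. These shares describe letters in the window and were not tested.

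In the run of 7 DUF1262 genes, 5 promoters held the W-box core, and so did 8 of the 10 largest rises and 5 of the 10 largest falls. Promoters of 2 genes of the run and of IDL1, which was among the largest rises, are shown with the core in capitals, from the same assembly and on the strand of the gene. Those of the run were chosen after the values were seen.
AT1G13550, chr1:4638331-4638580, minus strand: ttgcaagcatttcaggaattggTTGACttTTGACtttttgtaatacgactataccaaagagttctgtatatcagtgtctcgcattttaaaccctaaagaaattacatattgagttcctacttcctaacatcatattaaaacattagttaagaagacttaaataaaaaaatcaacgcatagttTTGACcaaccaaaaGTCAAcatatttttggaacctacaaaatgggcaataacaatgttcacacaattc
AT1G13480, chr1:4624082-4624331, minus strand: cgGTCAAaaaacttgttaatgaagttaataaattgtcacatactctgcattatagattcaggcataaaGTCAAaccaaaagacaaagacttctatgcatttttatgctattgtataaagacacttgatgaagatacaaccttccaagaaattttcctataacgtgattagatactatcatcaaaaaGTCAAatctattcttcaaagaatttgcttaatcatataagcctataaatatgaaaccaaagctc
IDL1, chr3:9338076-9338325, minus strand: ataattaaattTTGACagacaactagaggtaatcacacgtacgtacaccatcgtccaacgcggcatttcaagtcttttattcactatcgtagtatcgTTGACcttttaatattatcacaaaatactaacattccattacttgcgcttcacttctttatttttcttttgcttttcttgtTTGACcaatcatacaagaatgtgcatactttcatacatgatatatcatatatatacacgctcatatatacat
AT1G13550 holds 4 copies of the core and the other 2 genes hold 3 copies each. IDL1, a small secreted peptide, had 21.4, 13.5 and 40.2 CPM in salt-treated leaves and no count in mock leaves, at least 391-fold higher.

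**Figure D5:**
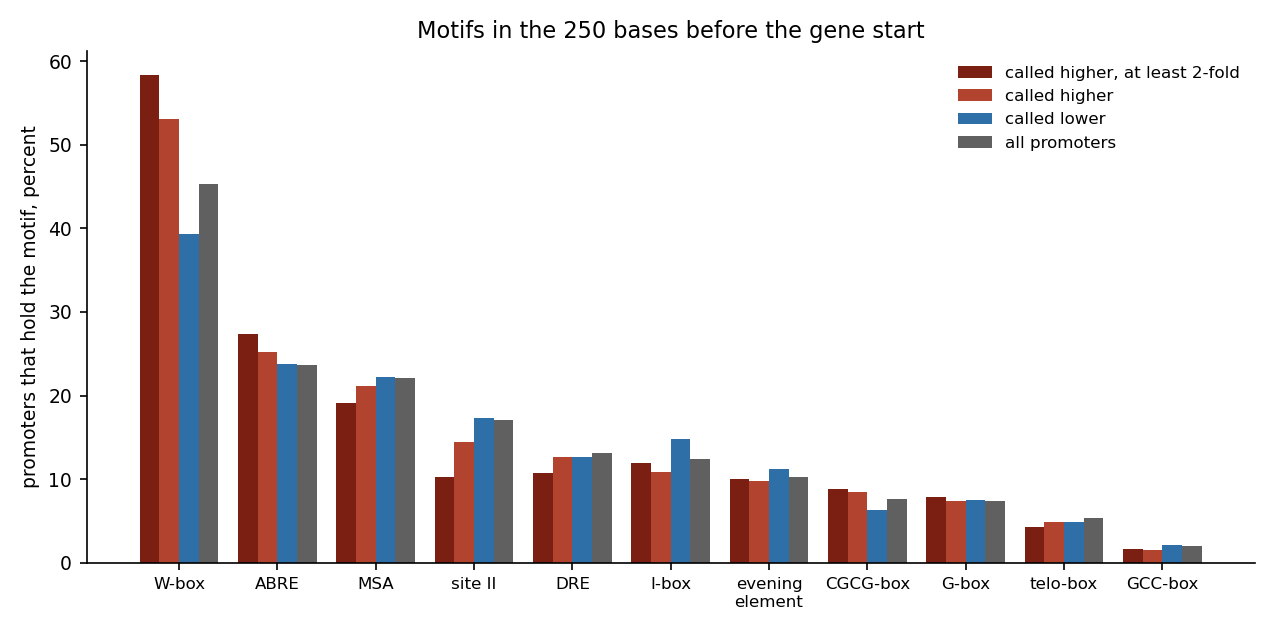
Share of promoters (250 bases before the gene start, either strand) that hold each of 11 motifs, for genes called higher by at least 2-fold, genes called higher, genes called lower and all 18758 promoters. The W-box core was in 58.3% of promoters of genes higher by at least 2-fold and 39.3% of those of genes called lower, and the bars of the ABRE core lie between 23.7% and 27.4%.

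Called genes were spread evenly over chromosomes 1 to 5, with 20% to 20.9% of tested genes higher and 20.4% to 21.7% lower on each. Coding length was related to direction. With protein-coding genes split into 4 classes of about equal number, in the shortest class, up to 753 bases of coding sequence, 16.5% were called higher and 24.9% lower, and in the longest class, from 1737 bases, 24.5% were higher and 16.4% lower. RNA quality per library is not given in the sources used here beyond an integrity number above 7.8 for all, and its part in this relation was not tested.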

How the data were processed

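Poly(A) RNA of wild-type and ERF34-overexpressing leaves was sequenced on an Illumina HiSeq instrument after preparation with a stranded TruSeq kit, per the labels' protocols. The authors deposited whole-number counts per gene. TopHat, Cufflinks and the TAIR10 build are listed without versions in the submitters' processing notes. How reads were assigned to genes, with which strand setting and filters, is not stated in the labels. A second deposited table with scaled values was not used. From the counts, 7 entries without a gene name were left out.

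All 12 libraries entered 1 edgeR model of 4 groups with 3 libraries each (edgeR 4.0.16, limma 3.58.1, R 4.3.3), with TMM factors, filterByExpr by group, robust quasi-likelihood dispersion and 8 residual degrees of freedom. Genes were called at a Benjamini-Hochberg adjusted p under 0.05. CPM values use the TMM-scaled library sizes. The fit was tested on simulated counts. Wild-type library totals were 14301312 to 18398594 counts, and bounds against groups without counts use 3 counts over the group and cover counting error only. The labels number the replicates 1 to 3 in each group, and deviations from the group means of same-numbered salt and mock libraries correlated at 0.397, 0.449 and 0.354 across genes, which was taken as pairing. The reported model has no block, so its calls, SE and adjusted p-values leave this pairing out. A model with the replicate number as a block was an alternative, beside DESeq2 1.42.0, other scaling factors, other filters, the wild-type libraries alone, a test against a 1.5-fold change, and fits without each wild-type library.

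Genes, gene lists, roles and families were chosen with earlier results of these data known. Named genes are the 10 largest rises and falls with a mean of at least 20 CPM in the higher group and no overlap, the 10 largest gains and losses of CPM, the 5 smallest adjusted p-values in each direction, up to 4 called members of a list by size of change and up to 2 uncalled ones by level, and members of the longest runs of neighbours. Some genes that meet these rules are not reported here. Other genes are marked in the text as chosen after their values were seen. Promoters, coordinates and gene types come from RefSeq's TAIR10.1 annotation, which held 32835 of the 33597 gene names.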

Additional observations from a re-analysis of the deposited data

How the results depend on the processing

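With a test against a 1.5-fold change, 3189 genes were called, 1778 higher and 1411 lower. The other alternatives kept the 3 counts within 1.5 times: the number called was 6713 to 9650, and 5921 to 7628 without 1 library (2943 to 3710 higher, 2978 to 3918 lower). The share of calls that were higher was 42.2% with upper quartile scaling, against 49.1% as reported. Of the 7814 calls, 7642 were shared in direction with DESeq2, and none was called in the opposite direction under any alternative. A model with replicate numbers as a block called 9650 genes, 4745 higher and 4905 lower. This gave bZIP60 a call and changed no other call among the 138 genes named. For the difference between genotypes, DESeq2 called 658 genes, the block 379, RLE scaling 5 and no filter 8, and fits without 1 library 0 to 67. AOX1A, not called, had a log2 fold change of -0.027 with upper quartile scaling, and of -0.26 to 0.36 in fits without 1 library (-0.26 without salt replicate 3, -0.17 without mock replicate 2). List medians changed sign only for cell cycle, brassinosteroid, cytokinin, histone, fatty acid breakdown and reference genes, whose reported medians were -0.16 to 0.17. The causes of these changes were not tested. Genes under a few CPM are limited by depth, and 3 libraries a group limit what can be called.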
